A study of Mus musculus with 4 samples.

Results

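MHC class II presentation is described here through 10 genes, measured as RNA in single cells of mouse mammary tumours. They are the chains of the peptide-binding molecules (H2-Aa, H2-Ab1 and H2-Eb1), the invariant chain (Cd74), the peptide exchange factor H2-DM (H2-DMa, H2-DMb1 and H2-DMb2), its partner H2-O (H2-Oa and H2-Ob) and the regulator Ciita. They were chosen by their role in the pathway, they are 10 of the 31053 features counted, and all 10 had UMIs (unique molecular identifiers, each standing for 1 captured RNA molecule). Immune cells were sorted by flow cytometry from tumours of Jagged1/PyMT and PyMT mice of the FVB/NJ strain, all 12 weeks old. Both groups therefore carry the PyMT oncogene, and Jagged1, a Notch ligand, is the added allele; the promoters that drive the alleles are not given in the labels. Each group has 2 samples, with 8000 cells loaded on a droplet 3' RNA-seq kit, but the deposited matrix of each genotype pools its samples with no map from barcodes to samples. Each genotype is thus 1 library, no test between genotypes was possible, and all intervals in parentheses are 95% intervals that cover counting error only, not the spread between mice.

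A cell was a barcode with 500 or more UMIs, 250 or more genes and no more than 10% mitochondrial UMIs. After removal of likely doublets, 7379 Jagged1/PyMT and 7001 PyMT cells remained, with medians of 4049 and 3793 UMIs. They shared 70 barcode sequences between the libraries. Cells were clustered without the 10 genes, and classes were named from marker genes, so a name such as "B cell-like" rests on RNA alone. Ptprc, the pan-leukocyte gene, had a UMI in 72.8% of Jagged1/PyMT and 76.8% of PyMT cells. Macrophage-like cells numbered 2221 Jagged1/PyMT and 219 PyMT, T cell-like cells 2543 Jagged1/PyMT and 4746 PyMT and B cell-like cells 1301 Jagged1/PyMT and 1375 PyMT. A barcode was counted as holding a second lineage when it had at least 3 UMIs of core genes of another lineage, or 10 for neutrophil genes. Macrophage genes did not count as another lineage in dendritic classes and the cluster called F13a1 below, nor T cell genes in NK cell-like cells. A cluster that held T cell and macrophage genes in the same barcodes (474 Jagged1/PyMT and 134 PyMT) was not described as a class. Its barcodes stay in the cell totals above and in the totals from which shares of UMIs and cells were taken. A second cluster, led by F13a1, Chil3 and Ccl6, mixed monocyte and resident macrophage genes and is called the F13a1 cluster (171 Jagged1/PyMT and 64 PyMT cells). Barcodes under 100 UMIs, which carry free RNA, held 3.70% of Jagged1/PyMT and 3.14% of PyMT UMIs.

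MHC class II molecules are pairs of an alpha and a beta chain that display peptides from endosomes to CD4 T cells. The invariant chain plugs the groove until it is cut down to a fragment, H2-DM then swaps that fragment for peptides, and H2-O holds H2-DM back in B cells and some dendritic cells. Ciita, recruited by RFX and NF-Y proteins to paired X and Y boxes of these promoters, switches the set on in professional antigen-presenting cells, and mouse T cells are not known to make class II molecules.

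Of the 10 genes, 8 lie in the class II region of chromosome 17, at chr17:34092340-34316674 of GRCm38 (GENCODE vM21 annotation), a stretch of 224 kb. Ciita lies at chr16:10480059-10528418 on the plus strand. The build of the deposited counts is not given in the sources used here, but 30934 of the 31053 gene identifiers are in that annotation. RefSeq promoters (GRCm38.p6, 250 bases before to 50 after each start) were searched for 7 of the 10 genes, without H2-Ab1, Ciita and Cd74. The Y box core ATTGG, searched on both strands, was present in 7 of the 7, for H2-DMa in 1 of its promoters, and in 37.4% of all 32851 promoters. The end of the X box, ACNGATG with up to 1 mismatch on both strands, was present in 7 of the 7 but also in 86.7% of all promoters. The ordered pair, with ACNGATG ending 15 to 30 bases before ATTGG on the same strand, was found in 4 members and in 2.70% of all promoters. Those 4 promoters and, for contrast, those of H2-Aa and H2-Oa, in which the pair was not found, are shown 5′ to 3′ with the matched letters in capitals. H2-Eb1 is from chr17:34305763-34305822 on the plus strand, H2-DMb1 from chr17:34153085-34153144 on the plus strand, H2-DMb2 from chr17:34145114-34145173 on the plus strand, H2-Ob from chr17:34238803-34238862 on the plus strand, H2-Aa from chr17:34287857-34287916 on the minus strand and H2-Oa from chr17:34092291-34092350 on the plus strand.
H2-Eb1: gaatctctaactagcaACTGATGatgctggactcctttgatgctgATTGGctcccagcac
H2-DMb1: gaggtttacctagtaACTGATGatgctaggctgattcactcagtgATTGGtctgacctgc
H2-DMb2: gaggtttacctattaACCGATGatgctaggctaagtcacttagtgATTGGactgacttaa
H2-Ob: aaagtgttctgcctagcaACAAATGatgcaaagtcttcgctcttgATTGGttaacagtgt
H2-Aa: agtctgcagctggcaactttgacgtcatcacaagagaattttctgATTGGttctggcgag
H2-Oa: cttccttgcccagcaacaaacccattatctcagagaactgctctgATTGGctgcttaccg
The gap between the boxes was 22 bases in H2-Eb1, 23 bases in H2-DMb1 and H2-DMb2, and 20 bases in H2-Ob, whose X match had 1 mismatch. These are sequences of the reference genome and were not read from the FVB/NJ mice. A match describes letters only, and its absence in a 300-base window says nothing about binding of a factor.

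The 10 genes together made up 49168 CPM in Jagged1/PyMT and 55304 CPM in PyMT of the RNA of B cell-like cells, where CPM is the share of the class's UMIs, scaled to 1000000. A 3' UMI count does not scale with gene length, so levels of different genes are set side by side. Reads may be lost unequally between genes where FVB/NJ sequence differs from the reference used in counting. The part of such loss in levels and ratios of different genes was not tested. Conventional dendritic cell (DC)-like cells, which sample tissue antigen, were at 54832 CPM in Jagged1/PyMT and 54753 CPM in PyMT, with 59 Jagged1/PyMT and 46 PyMT cells. Macrophage-like cells stood at 33874 CPM in Jagged1/PyMT and 39317 CPM in PyMT. Plasmacytoid DC-like cells, known as producers of interferon, held 21751 CPM in Jagged1/PyMT and 28689.7 CPM in PyMT in 32 Jagged1/PyMT and 24 PyMT cells. Mature DC-like cells, which have taken up antigen and express migration genes, held 13446 CPM in Jagged1/PyMT and 14288 CPM in PyMT in 65 Jagged1/PyMT and 67 PyMT cells. The F13a1 cluster was at 19055 CPM in Jagged1/PyMT and 10835 CPM in PyMT. In both libraries B cell-like and conventional DC-like cells were thus above macrophage-like cells, and macrophage-like cells above plasmacytoid and mature DC-like cells. Without barcodes that held a second lineage, macrophage-like cells stood at 43800.1 CPM in Jagged1/PyMT and 55973 CPM in PyMT, the PyMT value being level with B cell-like cells, at 55706 CPM.

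Cells that should lack the genes were far lower, except neutrophil-like cells. T cell-like cells held 569 CPM in Jagged1/PyMT and 254 CPM in PyMT, and NK cell-like cells 946 CPM in Jagged1/PyMT and 827 CPM in PyMT. Neutrophil-like cells held 5558 CPM in Jagged1/PyMT and 5729.8 CPM in PyMT, with genes of a second lineage in 40.8% of Jagged1/PyMT and 24.3% of PyMT barcodes. Free RNA was itself rich in class II transcripts, with H2-Aa at 3071 CPM in Jagged1/PyMT and 3417 CPM in PyMT, and Cd74 at 8692 and 6846 CPM. The part of free RNA in the levels of neutrophil-like and T cell-like cells was not tested.

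**Figure D1:**
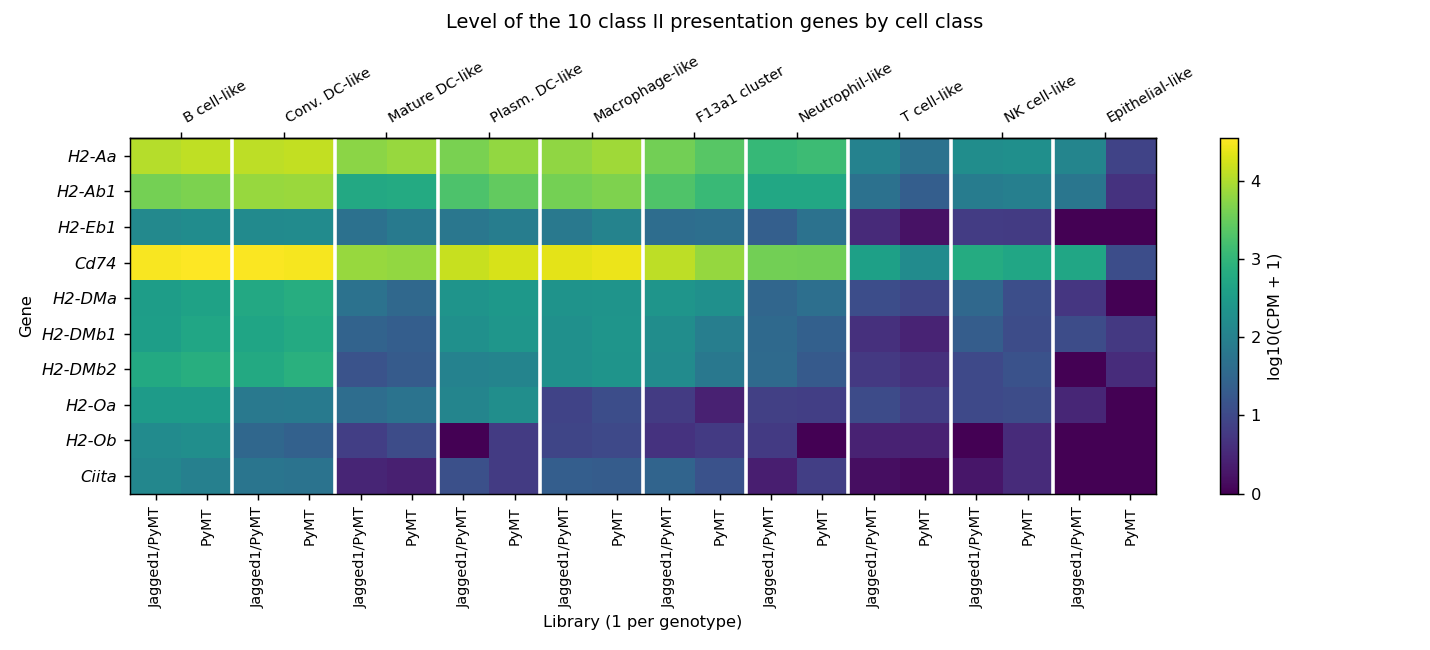
Level of each of the 10 genes (vertical axis) by cell class and library (horizontal axis, Jagged1/PyMT left of PyMT in each class), coloured as log10 of CPM plus 1, with 1 library per genotype. Cd74 and H2-Aa are high in B cell-like, DC-like and macrophage-like cells, while H2-Oa and H2-Ob stand out in B cell-like cells and Ciita is near 0 in mature DC-like cells.

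Different cells carried most of the class II RNA in the 2 libraries. Macrophage-like cells held 70.2% of the UMIs of the 10 genes in Jagged1/PyMT, where they were 30.1% of cells, and 16.5% in PyMT, where they were 3.13% of cells. B cell-like cells held 18.3% in Jagged1/PyMT and 65.5% in PyMT, and conventional DC-like cells 3.88% and 9.59%. In these 3 classes the summed level differed by less than 1.5-fold between libraries, while macrophage-like cells were 10 times as many in Jagged1/PyMT. T cell-like cells held 0.518% of these UMIs in Jagged1/PyMT and 1.2% in PyMT, where they were 34.5% and 67.8% of cells.

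H2-Aa and H2-Ab1 encode the alpha and beta chains of I-A, and Cd74, on chromosome 18, their chaperone. In B cell-like cells H2-Aa was at 11051 CPM (10952 to 11152) in Jagged1/PyMT and 13035 CPM (12934 to 13136) in PyMT. H2-Ab1 was at 3898 CPM (3839 to 3958) in Jagged1/PyMT and 4444 CPM (4385 to 4503) in PyMT. Cd74 was at 32206 CPM (32036 to 32377) in Jagged1/PyMT and 35463 CPM (35298 to 35629.7) in PyMT, or 2.91 UMIs per H2-Aa UMI in Jagged1/PyMT and 2.72 in PyMT. In conventional DC-like cells H2-Aa was at 12388 CPM in Jagged1/PyMT and 13649 CPM in PyMT, H2-Ab1 at 7170.3 CPM in Jagged1/PyMT and 7437 CPM in PyMT and Cd74 at 33368 CPM in Jagged1/PyMT and 31305 CPM in PyMT. Macrophage-like cells held H2-Aa at 6292 CPM in Jagged1/PyMT and 7982 CPM in PyMT, H2-Ab1 at 3977 CPM in Jagged1/PyMT and 4639.9 CPM in PyMT and Cd74 at 22905 CPM in Jagged1/PyMT and 25869 CPM in PyMT. H2-Aa and Cd74 were lower there than in B cell-like and conventional DC-like cells of the same library, while H2-Ab1 was near its B cell-like level. With each cell thinned to 1000 UMIs and shallower cells left out (2110 Jagged1/PyMT and 183 PyMT macrophage-like cells remained), an H2-Aa UMI was found in 100% of Jagged1/PyMT and 100% of PyMT B cell-like cells and in 77.0% of Jagged1/PyMT and 80.3% of PyMT macrophage-like cells, against 4.30% of Jagged1/PyMT and 2.67% of PyMT T cell-like cells. Without thinning the shares were 87.3% of Jagged1/PyMT and 90.4% of PyMT macrophage-like cells, against 12.3% and 7.56% of T cell-like cells. Median depths were then 3179 UMIs in Jagged1/PyMT and 3490 in PyMT for B cell-like, 9830 and 5875 for macrophage-like, and 3719 and 3832.5 for T cell-like cells.

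H2-Eb1, the beta chain of I-E, was a minor transcript everywhere. The FVB strain is known to lack surface I-E because its alpha chain gene is defective, and values of that gene, H2-Ea, are not reported here. H2-Eb1 was at 139 CPM (128 to 150.3) in Jagged1/PyMT and 160.2 CPM (149 to 172) in PyMT in B cell-like cells and at 69.1 CPM in Jagged1/PyMT and 109 CPM in PyMT in macrophage-like cells. Set against H2-Ab1, it gave 0.0356 UMIs per H2-Ab1 UMI in Jagged1/PyMT and 0.0360 in PyMT B cell-like cells, 0.0207 and 0.0210 in conventional DC-like cells, and 0.0174 and 0.0234 in macrophage-like cells. It was therefore a few hundredths of H2-Ab1 in these classes. An antisense gene, Gm20513, overlaps H2-Eb1 over 2204 bases and had 21 UMIs in Jagged1/PyMT and 31 in PyMT B cell-like cells; whether the counting used strand is not given in the sources used here.

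The H2-DM genes encode the exchange factor, H2-DMa its alpha chain and H2-DMb1 and H2-DMb2 alternative beta chains. They were highest in conventional DC-like and B cell-like cells. Conventional DC-like cells held H2-DMa at 549.8 CPM in Jagged1/PyMT and 682 CPM in PyMT, H2-DMb1 at 474 CPM in Jagged1/PyMT and 608 CPM in PyMT and H2-DMb2 at 576 CPM in Jagged1/PyMT and 761.6 CPM in PyMT. B cell-like cells held H2-DMa at 339 CPM in Jagged1/PyMT and 424 CPM in PyMT, H2-DMb1 at 356 CPM in Jagged1/PyMT and 486 CPM in PyMT and H2-DMb2 at 575 CPM in Jagged1/PyMT and 711 CPM in PyMT. Macrophage-like cells had H2-DMa at 212 CPM in Jagged1/PyMT and 223 CPM in PyMT. The beta chains differed between classes in their balance, with 1.62 (1.52 to 1.73) H2-DMb2 UMIs per H2-DMb1 UMI in Jagged1/PyMT and 1.46 (1.39 to 1.54) in PyMT B cell-like cells, 0.979 (0.939 to 1.02) and 0.968 (0.840 to 1.11) in macrophage-like cells, and 0.542 (0.323 to 0.891) and 0.458 (0.263 to 0.774) in plasmacytoid DC-like cells. H2-DMb2 was thus the major copy in B cell-like cells, level with H2-DMb1 in macrophage-like cells and the minor copy in plasmacytoid DC-like cells. The intervals of these classes did not overlap in either library. The copies share 206 of the 1314 (15.7%) 91-base windows of H2-DMb1, so reads within those stretches cannot be assigned, which makes the absolute balance uncertain, while the same counting was applied to each class. In the last 500 bases, where 3' reads fall, 51 of 410 windows of H2-DMb1 were found in H2-DMb2, and 0 of 410 windows of H2-DMb2 in H2-DMb1.

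H2-O, the restraint on H2-DM, separated B cell-like from macrophage-like cells. H2-Oa, its alpha chain gene, was at 318 CPM (301 to 336) in Jagged1/PyMT and 311 CPM (295 to 327) in PyMT in B cell-like cells, against 7.15 CPM (6.11 to 8.31) in Jagged1/PyMT and 10.8 CPM (6.51 to 16.9) in PyMT in macrophage-like cells. Plasmacytoid DC-like cells held 116 CPM in Jagged1/PyMT and 175 CPM in PyMT, conventional DC-like cells 66.9 CPM in Jagged1/PyMT and 75.2 CPM in PyMT and mature DC-like cells 41.3 CPM in Jagged1/PyMT and 53.2 CPM in PyMT. H2-Ob, the beta chain gene, was at 158 CPM in Jagged1/PyMT and 174 CPM in PyMT in B cell-like cells and 8.04 CPM in Jagged1/PyMT and 9.11 CPM in PyMT in macrophage-like cells. In plasmacytoid DC-like cells it had 0 UMIs in Jagged1/PyMT, which allows up to 12.0 CPM (3 counts), and 5.14 CPM in PyMT, beside the H2-Oa levels above. These cells thus carried the alpha chain transcript with little or no beta chain transcript. Per H2-DM UMI, B cell-like cells held 0.375 (0.356 to 0.395) H2-O UMIs in Jagged1/PyMT and 0.299 (0.286 to 0.313) in PyMT, conventional DC-like cells 0.0619 and 0.0486, and macrophage-like cells 0.0256 (0.0230 to 0.0284) and 0.0295 (0.0204 to 0.0412). The B cell-like ratio was thus over 10 times that of macrophage-like cells in both libraries, and in Jagged1/PyMT it was above that in PyMT with intervals that did not overlap. Between the libraries, the H2-DM genes of B cell-like cells summed to a log2 ratio (Jagged1/PyMT over PyMT) of -0.35 (-0.40 to -0.30) and the H2-O genes to -0.02 (-0.11 to 0.06), so the gap lay with H2-DM. Free RNA stood at 0.148 in Jagged1/PyMT and 0.249 in PyMT, above the macrophage-like cells.

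**Figure D2:**
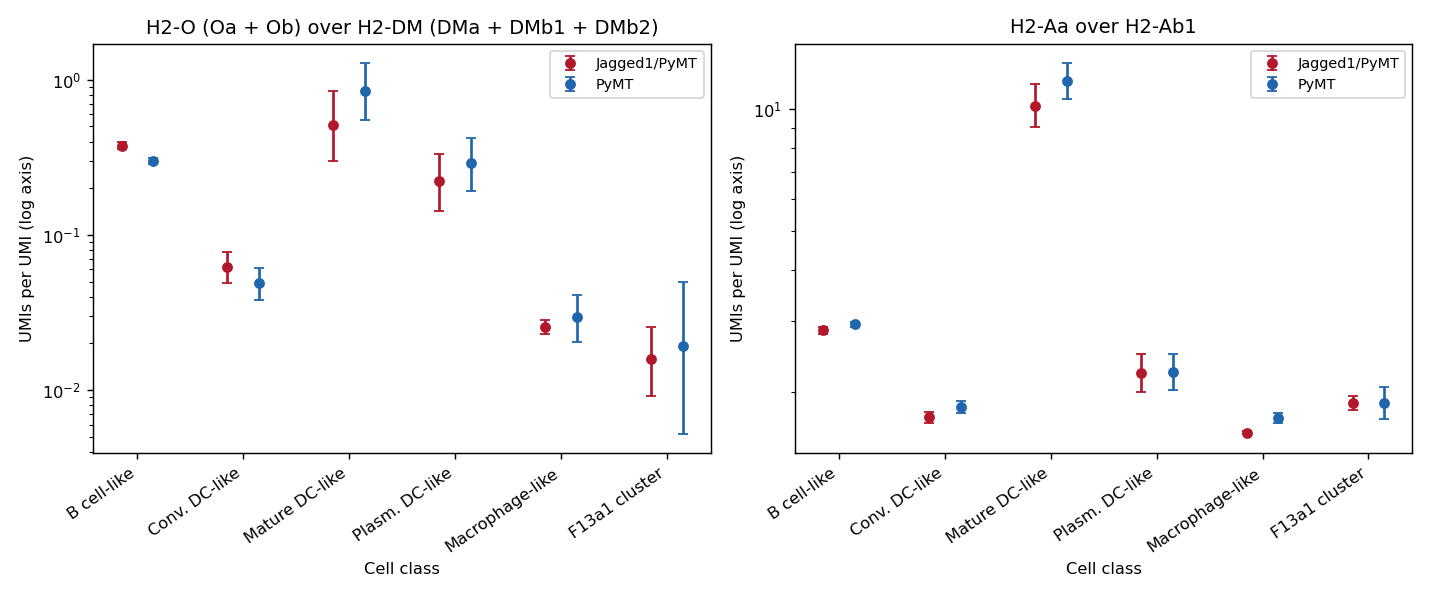
Ratios between members by cell class on a log axis, with H2-O over H2-DM UMIs in one panel and H2-Aa over H2-Ab1 UMIs in the other, Jagged1/PyMT points left of PyMT points and bars for 95% counting intervals. B cell-like, plasmacytoid and mature DC-like cells lie far above macrophage-like cells for H2-O over H2-DM, and mature DC-like cells stand apart at 10.2 and 11.8 for H2-Aa over H2-Ab1.

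Ciita, the regulator, was a low transcript in every class. It was highest in B cell-like cells, at 127 CPM (116 to 138) in Jagged1/PyMT and 96.3 CPM (87.8 to 105) in PyMT, followed by conventional DC-like cells at 58.2 CPM in Jagged1/PyMT and 53.3 CPM in PyMT and macrophage-like cells at 21.5 CPM in Jagged1/PyMT and 20.5 CPM in PyMT. Per H2-Aa UMI, B cell-like cells held 0.0115 Ciita UMIs in Jagged1/PyMT and 0.00738 in PyMT, against 0.00342 and 0.00257 in macrophage-like cells. In mature DC-like cells Ciita had 1 UMI in each library, and in T cell-like cells it was at 0.481 CPM in Jagged1/PyMT and 0.304 CPM in PyMT. At 1000 UMIs per cell a Ciita UMI was found in 10.7% of Jagged1/PyMT and 8.98% of PyMT B cell-like cells, 2.65% of Jagged1/PyMT and 2.19% of PyMT macrophage-like cells and 0.0811% of Jagged1/PyMT T cell-like cells. It was found in 0% of PyMT T cell-like cells, with an exact binomial upper bound of 0.0789%. Without thinning the shares were 30.6% and 27.2% of B cell-like, 15.7% and 11.9% of macrophage-like, and 0.197% and 0.126% of T cell-like cells. Dexi overlaps Ciita on the opposite strand in the annotation and was at 15.7 CPM in Jagged1/PyMT and 12.3 CPM in PyMT B cell-like cells, so the strand limit given for H2-Eb1 holds here too.

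Mature DC-like cells combined class II chain and Cd74 RNA with low levels of the H2-DM genes and almost no Ciita. H2-Aa was at 5765 CPM (5558 to 5977) in Jagged1/PyMT and 7035 CPM (6836 to 7237) in PyMT, and H2-Ab1 at 565 CPM (501 to 634) in Jagged1/PyMT and 599 CPM (542 to 659.8) in PyMT. They thus had 10.2 (9.04 to 11.6) H2-Aa UMIs per H2-Ab1 UMI in Jagged1/PyMT and 11.8 (10.6 to 13) in PyMT, where B cell-like cells had 2.83 and 2.93, conventional DC-like cells 1.73 and 1.84, and macrophage-like cells 1.58 and 1.72. The imbalance was judged cell by cell only where H2-Aa had at least 10 UMIs, in 34 of 65 Jagged1/PyMT and 40 of 67 PyMT mature DC-like cells. Among cells with at least 10 H2-Aa UMIs, H2-Aa exceeded 5 times H2-Ab1 in 30 of 34 (88.2%) Jagged1/PyMT and 33 of 40 (82.5%) PyMT mature DC-like cells, against 1 of 56 and 0 of 43 conventional DC-like, 149 of 1285 (11.6%) and 157 of 1370 (11.5%) B cell-like, and 56 of 1557 (3.60%) and 10 of 155 (6.45%) macrophage-like cells. H2-DMa was at 51.2 CPM in Jagged1/PyMT and 34.0 CPM in PyMT, H2-DMb1 at 27.5 CPM in Jagged1/PyMT and 22.2 CPM in PyMT and H2-DMb2 at 13.8 CPM in Jagged1/PyMT and 19.2 CPM in PyMT, each more than 10 times below its level in conventional DC-like cells of the same library. Cd74 was at 6926 CPM in Jagged1/PyMT and 6440.4 CPM in PyMT, or 1.2 and 0.916 UMIs per H2-Aa UMI, against 2.69 in Jagged1/PyMT and 2.29 in PyMT conventional DC-like cells. H2-Oa, at 41.3 CPM in Jagged1/PyMT and 53.2 CPM in PyMT, lay nearer its conventional DC-like levels of 66.9 and 75.2 CPM. H2-O over H2-DM came to 0.511 (0.299 to 0.852) in Jagged1/PyMT and 0.843 (0.549 to 1.29) in PyMT. Free RNA had 2.30 H2-Aa UMIs per H2-Ab1 UMI in Jagged1/PyMT and 3.24 in PyMT, far from the mature DC-like ratio.

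Within the conventional DC-like and F13a1 clusters, sub-clusters differed more than the classes did. These were made after the data had been seen, and most hold under 50 cells a library. A sub-cluster led by Xcr1 and Wdfy4, genes of the cross-presenting cDC1 lineage, held 9 Jagged1/PyMT and 14 PyMT cells and summed to 88051 CPM in Jagged1/PyMT and 73010.4 CPM in PyMT, with H2-Oa at 226 CPM in Jagged1/PyMT and 217 CPM in PyMT and H2-Ob at 130.2 CPM (15 UMIs) in Jagged1/PyMT and 74.2 CPM (14 UMIs) in PyMT. One led by Lyz1, Fcrls and Mmp12 (17 Jagged1/PyMT and 21 PyMT cells) summed to 58049.8 CPM in Jagged1/PyMT and 59223 CPM in PyMT, but its H2-Oa was at 23.1 CPM in Jagged1/PyMT and 15.3 CPM in PyMT, and its H2-Ob at 19.3 CPM (5 UMIs) in Jagged1/PyMT and 10.2 CPM (4 UMIs) in PyMT. A sub-cluster with monocyte genes (Ly6c2 and Plac8; 29 Jagged1/PyMT and 9 PyMT cells) summed to 7282 CPM in Jagged1/PyMT and 10710.1 CPM in PyMT. Both H2-O transcripts were thus higher in the Xcr1 sub-cluster than in the Mmp12 sub-cluster, H2-Ob on few UMIs, although both summed to more than the conventional DC-like class as a whole.

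Single cells of a class also differed. With each cell at 1000 UMIs, the 10 genes summed to a median of 50 (quartiles 42 and 58) UMIs in Jagged1/PyMT and 56 (quartiles 48 and 66) in PyMT B cell-like cells. Macrophage-like cells had a median of 30 (quartiles 7 and 66) in Jagged1/PyMT and 51 (quartiles 9 and 79) in PyMT, with 8.34% and 7.10% of cells at 0. The quartiles of macrophage-like cells thus lay about 9-fold apart, while those of B cell-like cells were within 1.5-fold of each other. A second lineage was found in 25.5% of Jagged1/PyMT and 26.9% of PyMT macrophage-like barcodes, and the part of those barcodes in this spread was not tested. Mature DC-like cells had a median of 5 (quartiles 3 and 17) in Jagged1/PyMT and 6 (quartiles 4 and 19) in PyMT. In the F13a1 cluster the median was 11 (quartiles 2 and 29.5) in Jagged1/PyMT and 2.5 (quartiles 0 and 7.25) in PyMT, and 14.6% and 28.1% of cells were at 0. In T cell-like cells 82.9% of Jagged1/PyMT and 90.9% of PyMT cells had no UMI of the 10 genes at that depth.

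**Figure D3:**
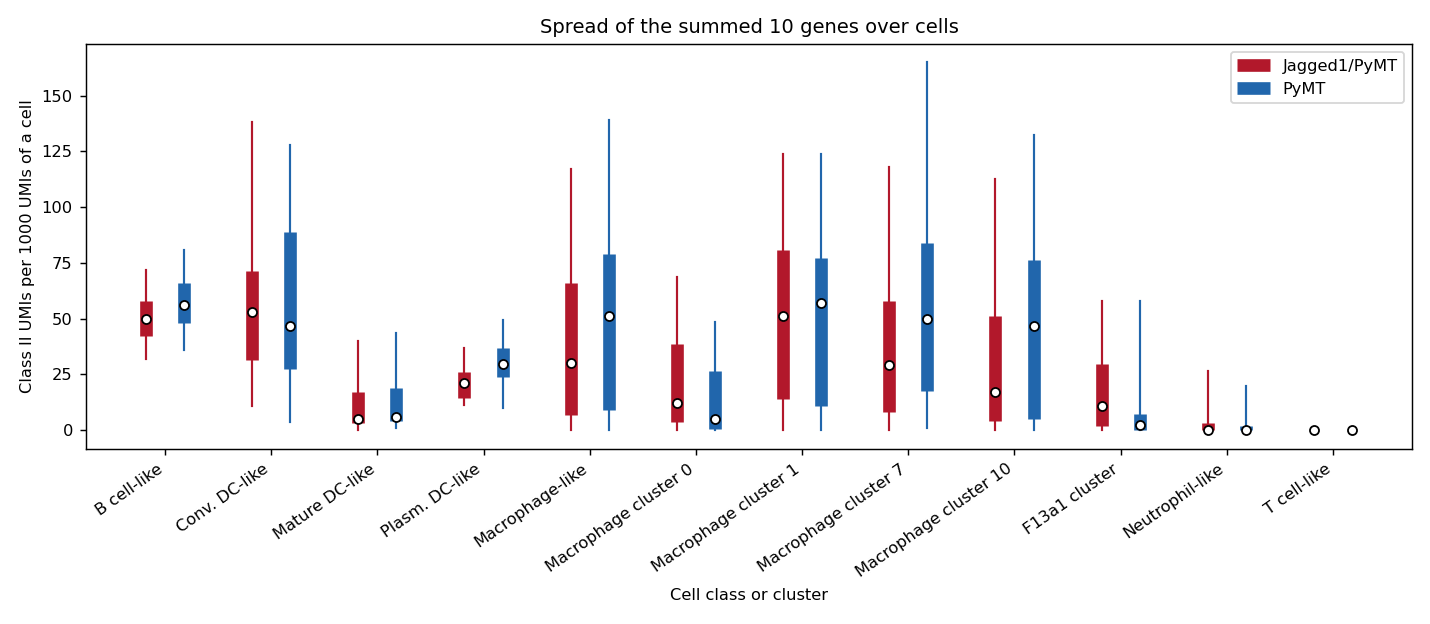
Summed UMIs of the 10 genes per 1000 UMIs of a cell (vertical axis) by class and macrophage cluster, with the point at the median over cells and the bar from the lower to the upper quartile, Jagged1/PyMT left of PyMT. B cell-like cells form a narrow band around 50 and 56, macrophage-like cells spread over 7 to 66 and 9 to 79, and the T cell-like median is 0.

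The macrophage-like class was made of 4 clusters, of which clusters 1, 7 and 10 hold most cells of both libraries. Cluster 1, led by Gdf15, Ccl3 and Vcam1 (740 Jagged1/PyMT and 46 PyMT cells), summed to 45799 CPM in Jagged1/PyMT and 41866 CPM in PyMT. Cluster 7, led by Aif1, Ctsd and Apoe and made of shallow barcodes (729 Jagged1/PyMT and 107 PyMT cells), summed to 36356 CPM in Jagged1/PyMT and 54561 CPM in PyMT. Cluster 10, led by Mmp12, Pdpn and Cxcl1 (577 Jagged1/PyMT and 58 PyMT cells), summed to 27035 CPM in Jagged1/PyMT and 40464 CPM in PyMT. Cluster 0, led by cell cycle genes (175 Jagged1/PyMT and 8 PyMT cells), summed to 19855 CPM in Jagged1/PyMT and 11428 CPM in PyMT. Within Jagged1/PyMT the order was cluster 1, 7, 10 and then 0, and in PyMT it was 7, 1, 10 and then 0. Levels of cycling cells were thus the lowest of the class in both libraries, although PyMT had only 8 of them. At least 3 UMIs of core T cell genes were found in 32.2% of cluster 0 and 21.9% of cluster 1 barcodes of both libraries. The shares were 5.02% in cluster 7 and 42.2% in cluster 10, and their part in this order was not tested.

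Within T cell-like cells, a class that should lack class II molecules, H2-Oa was higher in CD8 clusters together than in the CD4 clusters compared here. H2-DMa was higher in CD8 cluster 5, while CD8 cluster 15 lay near the CD4 level in Jagged1/PyMT and below it in PyMT, on few UMIs. In clusters led by Cd8a and Cd8b1 or by CD8 effector genes (5 and 15; 734 Jagged1/PyMT and 1250 PyMT cells), H2-Oa was at 14.3 CPM (10.6 to 18.9) in Jagged1/PyMT and 11.1 CPM (8.63 to 14.1) in PyMT. In CD4 clusters (2, 3, 8, 9 and 13; 1616 and 3119 cells) it was at 2.51 CPM (1.37 to 4.21) in Jagged1/PyMT and 1.40 CPM (0.801 to 2.28) in PyMT. Clusters 21, 22 and 24, which also held Cd4 RNA, were in neither group. In Jagged1/PyMT and PyMT, H2-Oa was at 38.5 and 28.4 CPM in cluster 22 and at 10.7 and 3.73 CPM in cluster 24, both regulatory T cell-like. It was at 29.8 and 2.86 CPM in cluster 21, on 5 and 1 UMIs. CD8 over CD4 clusters came to 5.72-fold (3.11 to 11.2) in Jagged1/PyMT and 7.93-fold (4.55 to 14.6) in PyMT, and to 5.14-fold and 8.01-fold without barcodes that held a second lineage. H2-DMa was 1.73-fold (1.07 to 2.81) higher in the CD8 clusters together in Jagged1/PyMT and 2.80-fold (1.92 to 4.12) in PyMT. That excess lay in cluster 5, at 13.2 CPM in Jagged1/PyMT and 14.7 CPM in PyMT. Cluster 15 was at 7.01 CPM in Jagged1/PyMT and 2.69 CPM in PyMT, below CD4 cluster 3 at 8.67 and 5.98 CPM. H2-Aa, abundant in free RNA, came to 1.02-fold (0.816 to 1.27) in Jagged1/PyMT and 1.22-fold (0.999 to 1.48) in PyMT, CD8 over CD4. Per 100 H2-Aa UMIs there were 36.2 H2-Oa UMIs in Jagged1/PyMT and 39.3 in PyMT CD8 clusters, 6.45 and 6.04 in CD4 clusters, and 0.903 and 1.94 in free RNA, against 2.88 and 2.38 in B cell-like cells. The ratio in CD8 clusters was thus far above that of free RNA and of the class richest in H2-Oa. An H2-Oa UMI was found in 5.72% of Jagged1/PyMT and 4.8% of PyMT CD8 cluster cells, at median depths of 4527.5 and 4611.5 UMIs, and in 0.866% and 0.481% of CD4 cluster cells, at 3436 and 3585 UMIs. The partner chain H2-Ob had 1 UMI in Jagged1/PyMT and 3 in PyMT CD8 clusters. H2-Oa lies wholly within an antisense gene, BC051537, which had 0 to 3 UMIs in these cells, and H2-DMa overlaps Brd2 on the opposite strand over 3094 bases. Brd2 was at 119.7 CPM in Jagged1/PyMT and 171 CPM in PyMT CD8 clusters and at 119.9 and 172 CPM in CD4 clusters, nearly alike. The part of free RNA and of reads from the opposite strand in the H2-Oa and H2-DMa levels was not tested.

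**Figure D4:**
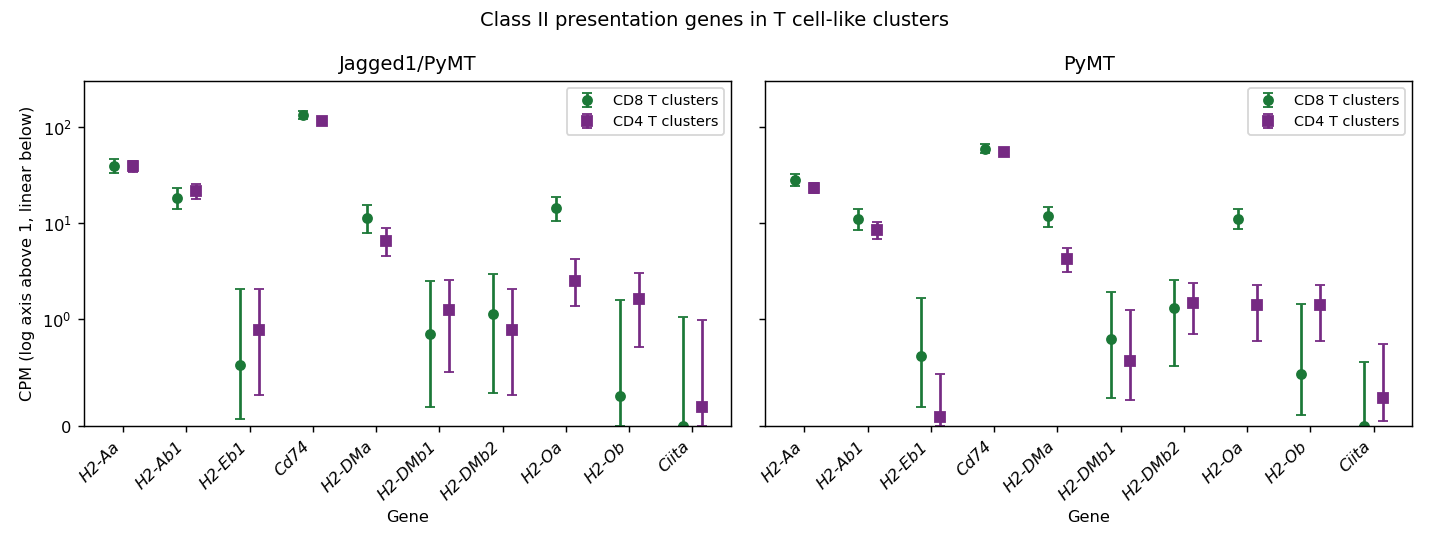
Level of each of the 10 genes in CD8 and CD4 T cell-like clusters (CPM, log axis above 1 and linear below it, bars for 95% counting intervals), with Jagged1/PyMT in the left panel and PyMT in the right. H2-Oa is higher in CD8 than in CD4 clusters in both panels with bars that do not overlap, while the H2-Aa points lie close together.

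Between genotypes, B cell-like cells of Jagged1/PyMT had slightly lower levels of most members, with Ciita the other way. Of 10 members measured (at least 50 UMIs over both libraries), 0 passed 1.5-fold upwards and 0 downwards in Jagged1/PyMT, where 4.4% of all 7927 genes measured were higher and 6.17% lower by that rule. The counting interval of the log2 ratio, Jagged1/PyMT over PyMT, lay below 0 for 7 members and above 0 for 1, against 16.9% below and 11.4% above over all genes. The median log2 ratio was -0.20 for the members and -0.04 for all genes. H2-DMb1, at 356 CPM in Jagged1/PyMT and 486 CPM in PyMT, had a log2 ratio of -0.45 (-0.54 to -0.36). H2-Aa had -0.24 (-0.26 to -0.22) and Cd74 -0.14 (-0.15 to -0.13), while H2-Oa had 0.03 (-0.07 to 0.14). Ciita had 0.40 (0.22 to 0.58), and its interval was the one above 0 among the members. In the 4 B cell-like clusters taken singly, the 10 genes summed had log2 ratios of -0.17, -0.13, -0.18 and -0.18 (clusters 4, 11, 12 and 16), and Ciita 0.32, 0.69, 0.26 and 0.33. The sums were thus below 0 and Ciita above 0 in each of the 4, with the Ciita interval spanning 0 in cluster 12. Summed T cell marker genes, as a trace of other cells, were at 41.6 CPM in Jagged1/PyMT and 65.7 CPM in PyMT B cell-like cells, with 7 of 7 detected in each library, and neutrophil markers at 23.3 CPM in Jagged1/PyMT and 2.02 CPM in PyMT, with 4 of 7 detected in each. Macrophage marker genes summed to 464 CPM in Jagged1/PyMT, with 8 of 8 detected, and 186 CPM in PyMT, with 7 of 8 detected. A second lineage was found in 2.38% of Jagged1/PyMT and 1.75% of PyMT barcodes; without them H2-Aa had a log2 ratio of -0.24, H2-DMb1 -0.45 and Ciita 0.39. The part of the remaining trace in these ratios was not tested.

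In macrophage-like cells the class-wide differences hid clusters that went different ways. Of 10 members measured, 0 were higher and 2, H2-Eb1 and H2-Oa, lower past 1.5-fold in Jagged1/PyMT, where 10.5% of all genes were higher and 10.1% lower, and H2-Oa (169 UMIs in Jagged1/PyMT and 19 in PyMT) had a log2 ratio of -0.60 (-1.29 to 0.17). The number lower was 0 to 4 under other settings. H2-DMb1 had a log2 ratio of -0.25 (-0.40 to -0.10) and Ciita 0.07 (-0.42 to 0.60). Within cluster 1 the 10 genes summed had a log2 ratio of 0.13 (0.11 to 0.15), against -0.59 (-0.61 to -0.56) in cluster 7 and -0.58 (-0.60 to -0.57) in cluster 10. In cluster 10 H2-Aa had -0.68, H2-DMb1 -0.70 and H2-DMb2 -0.71. The part of barcodes with T cell genes in the ratios of single clusters was not tested. H2-Eb1 was lower in Jagged1/PyMT both in cluster 1, with -0.48 (-0.86 to -0.07), and in cluster 10, with -1.06 (-1.36 to -0.75). The class had 10 times as many cells in Jagged1/PyMT, and its largest clusters were 1 and 7 in Jagged1/PyMT but 7 and 10 in PyMT. T cell marker genes summed to 319 CPM in Jagged1/PyMT and 599 CPM in PyMT macrophage-like cells, with 7 of 7 detected, and a second lineage was found in 25.5% of Jagged1/PyMT and 26.9% of PyMT barcodes. The log2 ratio of H2-Aa was -0.34 in all cells and -0.50 without those barcodes, and that of Cd74 -0.18 and -0.31.

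In the F13a1 cluster most members were higher in Jagged1/PyMT, but the differences depended on which barcodes were kept. Of 8 members measured, 6 (H2-Aa, H2-Ab1, Cd74, H2-DMb1, H2-DMb2 and Ciita) were higher and 0 lower past 1.5-fold in Jagged1/PyMT, beside 9.78% and 9.43% of all 5134 genes measured. The members' median log2 ratio was 0.79, and that of all genes -0.01. Cd74 stood at 12649 CPM (12491 to 12809) in Jagged1/PyMT and 6890.1 CPM (6682 to 7103) in PyMT, a log2 ratio of 0.88 (0.83 to 0.92). H2-Aa was at 3760.3 CPM in Jagged1/PyMT and 2307 CPM in PyMT, a log2 ratio of 0.70 (0.62 to 0.79). H2-DMb2 was at 153 CPM in Jagged1/PyMT and 64.6 CPM in PyMT, a log2 ratio of 1.24 (0.76 to 1.76). H2-Eb1, with 41.1 CPM in Jagged1/PyMT and 44.7 CPM in PyMT, had -0.12 (-0.77 to 0.57). A second lineage was found in 39.8% of Jagged1/PyMT and 32.8% of PyMT barcodes, B cell marker genes summed to 118 CPM in Jagged1/PyMT and 18.2 CPM in PyMT, and neutrophil genes to 1274 CPM in Jagged1/PyMT and 530.0 CPM in PyMT. Without second-lineage barcodes the number of members over 1.5-fold higher was 2, H2-DMb1 and H2-DMb2, and it was also 2, the same genes, without the sub-clusters of mixed lineage, a choice made after the data had been seen. H2-Aa then had a log2 ratio of 0.33 without second-lineage barcodes and 0.32 without the mixed sub-clusters. At a lower Leiden resolution and with the libraries clustered apart, the cluster merged with the conventional DC-like cells, and the merged cells had Cd74 log2 ratios of -0.11 and -0.19. The sub-clusters that make up the cluster were unequally filled, the stress-gene sub-cluster with Ccl12 by 35 Jagged1/PyMT and 6 PyMT cells (summed 34368 CPM in Jagged1/PyMT and 33818 CPM in PyMT) and the Thbs1 sub-cluster by 24 Jagged1/PyMT and 14 PyMT cells (summed 23490.1 CPM in Jagged1/PyMT and 16580.3 CPM in PyMT).

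Dendritic classes rested on few cells. Mature DC-like cells had 5 members measured, with 0 over 1.5-fold higher and 1, H2-Eb1, over 1.5-fold lower in Jagged1/PyMT, beside 5.04% and 8.75% of all genes. H2-Aa had a log2 ratio of -0.29 (-0.35 to -0.22) and Cd74 0.10 (0.04 to 0.17) there, and H2-Eb1, with 25 UMIs in Jagged1/PyMT and 50 in PyMT, -0.59 (-1.34 to 0.13). The number lower was 0 to 2 under other settings. Conventional DC-like cells, with under 50 cells in PyMT, had 9 members measured and 0 past 1.5-fold in either direction, beside 5.64% higher and 7.69% lower over all genes. Their 3 H2-DM genes had log2 ratios of -0.31, -0.36 and -0.40 (H2-DMa, H2-DMb1 and H2-DMb2), and Cd74 0.09 (0.07 to 0.12). A second lineage was found in 45.8% of Jagged1/PyMT and 45.7% of PyMT conventional DC-like barcodes; without them 0 members with at least 50 UMIs passed 1.5-fold in either direction, and the H2-DM genes had -0.21, -0.52 and -0.56. Plasmacytoid DC-like cells had 6 members measured, 0 higher and 3 (H2-Aa, H2-Ab1 and H2-Oa) lower past 1.5-fold, beside 8.33% and 11.6% of all genes, with H2-Aa at -0.61 (-0.73 to -0.49) on 32 Jagged1/PyMT and 24 PyMT cells. Macrophage marker genes were higher in Jagged1/PyMT in all 3 dendritic classes, at 1989 CPM in Jagged1/PyMT and 749 CPM in PyMT conventional DC-like cells, 1005 CPM in Jagged1/PyMT and 408 CPM in PyMT mature DC-like cells, and 1164 CPM in Jagged1/PyMT and 30.8 CPM in PyMT plasmacytoid DC-like cells. At least 5 of the 8 markers were detected in each, and their part in the ratios was not tested. The second-lineage rule does not remove barcodes for macrophage genes in these classes. Core macrophage genes were found in 31.4% of conventional DC-like barcodes of both libraries. Classes under 50 cells a library were added after the data had been seen.

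Classes that should lack class II RNA also differed between libraries, beside differences in other cells' RNA. T cell-like cells had 8 members measured, 5 over 1.5-fold higher (H2-Aa, H2-Ab1, Cd74, H2-DMb1 and H2-Oa) and 0 over 1.5-fold lower in Jagged1/PyMT, against 7.2% and 5.57% of all genes. H2-Aa was at 101 CPM in Jagged1/PyMT and 51.4 CPM in PyMT there, and Cd74 at 385 CPM in Jagged1/PyMT and 159 CPM in PyMT. Single clusters differed, with H2-Aa at 738 and 352 CPM in cluster 22, against 38.9 and 23.2 CPM in the CD4 clusters together. The 10 genes summed had a log2 ratio of -1.52 (-1.87 to -1.17) in cluster 21. In each other T cell-like cluster it was above 0, with an interval spanning 0 in cluster 15. A second lineage was found in 4.52% of Jagged1/PyMT and 1.33% of PyMT T cell-like barcodes. Macrophage marker genes, 8 of 8 detected in each library, summed to 416 CPM in Jagged1/PyMT and 122 CPM in PyMT T cell-like cells. Their part and that of second-lineage barcodes in these ratios were not tested. Neutrophil-like cells had 7 members measured, 1 higher (H2-DMb2) and 1 lower (H2-Eb1) past 1.5-fold, beside 17.1% and 12.4% of all genes, NK cell-like cells 3 measured with 0 past it, beside 7.9% higher and 14.1% lower, and epithelial-like cells 2 measured with 2 higher (H2-Aa and Cd74), beside 7.73% higher and 12.3% lower. Macrophage markers summed to 1017 CPM in Jagged1/PyMT, with 8 of 8 detected, and 59.2 CPM in PyMT, with 6 of 8 detected, in NK cell-like cells, where a second lineage was found in 30.7% of Jagged1/PyMT and 7.69% of PyMT barcodes. The epithelial-like class rests on 51 Jagged1/PyMT and 106 PyMT cells and 326 UMIs of the members in Jagged1/PyMT and 32 in PyMT, with a second lineage in 19.6% of Jagged1/PyMT and 8.49% of PyMT barcodes. Macrophage markers summed to 683 CPM in Jagged1/PyMT, with 7 of 8 detected, and 163 CPM in PyMT, with 5 of 8 detected, in those cells. H2-Aa there had a log2 ratio of 4.0 (2.93 to 5.29) and Cd74 one of 5.48 (4.65 to 6.46), and the part of macrophage RNA in them was not tested.

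**Figure D5:**
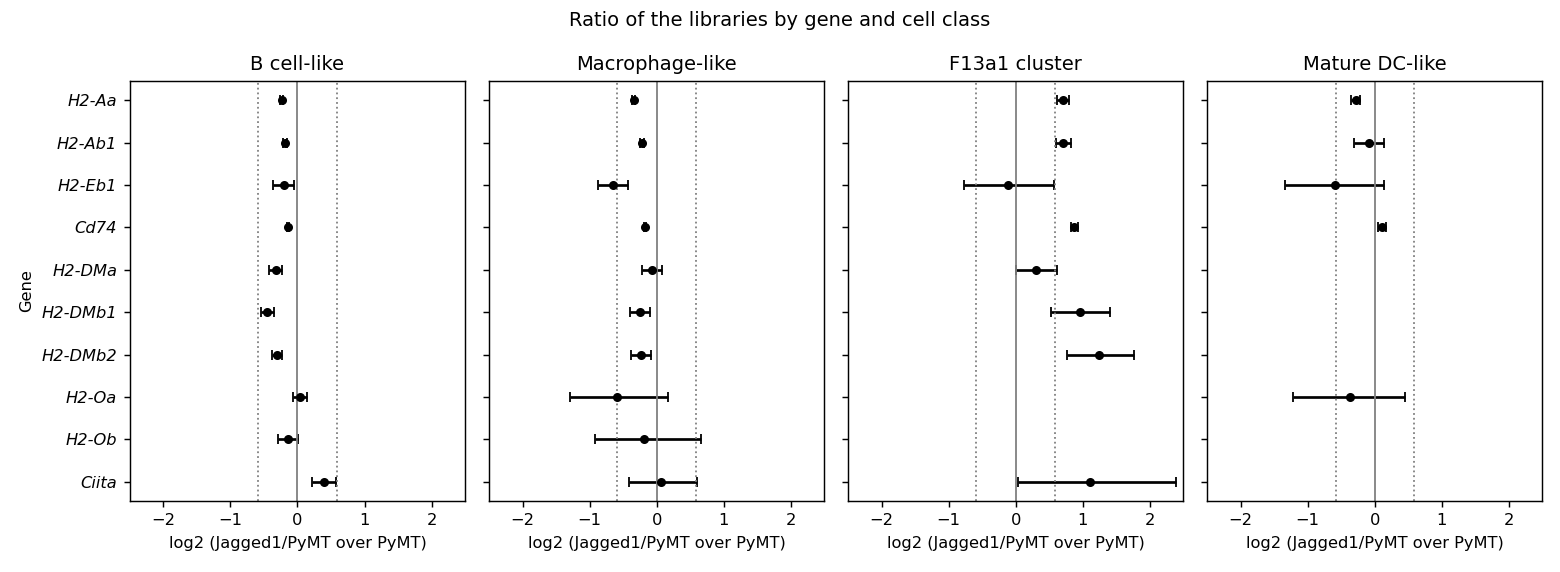
Log2 ratio of Jagged1/PyMT over PyMT (horizontal axis) for each gene (vertical axis) in 4 classes, with bars for 95% counting intervals and 1 library per genotype. B cell-like and macrophage-like points lie mostly just below 0, and most points of the F13a1 cluster lie above 0, with H2-DMb2 at 1.24.

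Among 38 other genes of the pathway, the number past 1.5-fold varied between classes. In T cell-like cells 29 were measured, 10 higher and 1 lower in Jagged1/PyMT, beside 7.2% and 5.57% of all genes, and in NK cell-like cells 17, 7 higher and 3 lower, beside 7.9% and 14.1%. Macrophage marker genes summed to 416 CPM in Jagged1/PyMT and 122 CPM in PyMT T cell-like cells. In NK cell-like cells they summed to 1017 CPM in Jagged1/PyMT and 59.2 CPM in PyMT. The part of macrophage RNA in these counts was not tested. Neutrophil-like cells had 22 measured, 3 higher and 4 lower, beside 17.1% and 12.4%, and epithelial-like cells 13, 0 higher and 3 lower, beside 7.73% and 12.3%. In macrophage-like cells 33 were measured, 3 over 1.5-fold higher and 5 over 1.5-fold lower in Jagged1/PyMT, beside 10.5% and 10.1% of all genes. Ctsl, a cathepsin, was at 294 CPM in Jagged1/PyMT and 655 CPM in PyMT, a log2 ratio of -1.16 (-1.25 to -1.07). Icam1, an adhesion ligand for T cells, was at 116 CPM in Jagged1/PyMT and 239.8 CPM in PyMT, a log2 ratio of -1.05 (-1.2 to -0.90). The costimulatory receptor Cd40 had -0.97 (-1.31 to -0.60), Jak2, a kinase of the interferon-gamma receptor, -0.81 (-1.13 to -0.46) and the ubiquitin ligase March8 -0.65 (-1.10 to -0.17). On the higher side were March1, a ubiquitin ligase that removes class II molecules from the surface, with 0.80 (0.29 to 1.35), Irf4, on 5 PyMT UMIs, with 0.60 (-0.67 to 2.25), and Rfx5. Ctss, the cathepsin that cuts the invariant chain, had -0.12 (-0.16 to -0.08) and Lgmn, another endosomal protease, 0.27 (0.21 to 0.34). Cd86 had -0.55 (-0.71 to -0.38), and Rfx5, a subunit of the RFX complex on the X box, had 93 UMIs in Jagged1/PyMT and 2 in PyMT, too few to give a direction, with 1.79 (-0.11 to 4.86).

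In B cell-like cells 31 pathway genes were measured, 3 over 1.5-fold higher and 0 over 1.5-fold lower in Jagged1/PyMT, beside 4.4% and 6.17% of all genes. These were Cd63, a lysosome membrane protein with 69 UMIs in Jagged1/PyMT and 20 in PyMT and a log2 ratio of 2.0 (1.27 to 2.80), the activation factor Irf4 at 0.67 (0.48 to 0.86) and the cathepsin Ctsb at 0.63 (0.40 to 0.85), beside the higher macrophage marker sum in Jagged1/PyMT given above. Rfx5 had -0.27 (-0.75 to 0.21), Ctss 0.15 (0.06 to 0.23) and Cd86 -0.49 (-0.65 to -0.34). In the F13a1 cluster 26 were measured, 3 higher and 3 lower, beside 9.78% and 9.43% of all genes, with March1 at 1.16 (0.15 to 2.35), Ctsl at 0.98 (0.60 to 1.38) and Cd63 at 0.73 (0.39 to 1.08) higher, and Icam1 at -0.88 (-1.27 to -0.49), Cd40 at -0.70 (-1.35 to -0.01) and Nfyc, an NF-Y subunit, at -0.59 (-1.28 to 0.12) lower. Ctsl thus had opposite signs in macrophage-like cells and the F13a1 cluster. In conventional DC-like cells 22 were measured, 3 higher and 4 lower, beside 5.64% and 7.69% of all genes, with Ctsl at 1.24 (0.43 to 2.11), Cd63 at 0.81 and Lgmn at 0.76, and with Irf4, a factor of the cDC2 lineage, at -1.24 (-2.06 to -0.47), Cd40 at -1.14, Icam1 at -0.95 and Cd80 at -0.93. Mature DC-like cells had 21 measured, 1 higher, Ctsd at 1.58 (0.86 to 2.34), and 0 lower, beside 5.04% and 8.75% of all genes. Plasmacytoid DC-like cells had 13 measured, 3 higher and 1 lower, beside 8.33% and 11.6% of all genes, with Ctsd at 1.55 (0.76 to 2.42), Irf8, a factor of DC development, at 1.47 (1.24 to 1.71) and Irf1 at 1.19 (0.28 to 2.18) higher, and Jak1 at -0.65 (-1.44 to 0.13) lower. Macrophage marker sums were also higher in Jagged1/PyMT in these 3 dendritic classes, as given above. The part of macrophage RNA in these ratios of pathway genes was not tested. Cd83, which protects class II molecules from March1, was at 1875 CPM in Jagged1/PyMT and 1800.0 CPM in PyMT mature DC-like cells and at 1376 CPM in Jagged1/PyMT and 1632 CPM in PyMT macrophage-like cells.

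Across 17 pairs of class and library, the genes whose log levels most resembled the summed members, of 10356 ranked, were Cd86 (Pearson r 0.94), Myo5a (0.93), Cd83 (0.91), Rasgef1b (0.91), Ly86 (0.91), Fgd2 (0.90), Ctss (0.89) and Cep170 (0.89). The pairs share libraries and free RNA, so r describes these data only. Within macrophage-like cells thinned to 1000 UMIs (2110 Jagged1/PyMT and 183 PyMT cells), the summed members were positively correlated with Cst3, a protease inhibitor high in DCs (Spearman rho 0.47 in Jagged1/PyMT and 0.41 in PyMT), with Ctss (0.32 in Jagged1/PyMT and 0.30 in PyMT), Tmem176b (0.24 in Jagged1/PyMT and 0.28 in PyMT), Dcstamp (0.23 in Jagged1/PyMT and 0.30 in PyMT) and Csf1r (0.20 in Jagged1/PyMT and 0.30 in PyMT). They were negatively correlated with Ctsd, a lysosomal protease (-0.40 in Jagged1/PyMT and -0.39 in PyMT), Tmsb10 (-0.33 in Jagged1/PyMT and -0.35 in PyMT), Lgals1 (-0.33 in Jagged1/PyMT and -0.38 in PyMT), Ftl1 (-0.33 in Jagged1/PyMT and -0.29 in PyMT) and Lgals3 (-0.29 in Jagged1/PyMT and -0.31 in PyMT). The sign of each of the 10 correlations was the same in both libraries, and all are across cells that share a library. Barcodes with a second lineage, 25.5% of the class in Jagged1/PyMT and 26.9% in PyMT, were not removed for these correlations. Their part in them was not tested.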

How the data were processed

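The values deposited are raw counts of UMIs for each gene in each barcode, which came from Cell Ranger 3.0.2, per the submitters' processing notes. The sources used here do not give the aligner, the genome build or the strand setting. The labels' 2 samples of a genotype share 1 matrix, so each genotype was 1 library, with 55506773 UMIs in Jagged1/PyMT and 36012036 in PyMT. Cells needed 500 UMIs, 250 genes and a mitochondrial share of 10% or less (7875 in Jagged1/PyMT and 7444 in PyMT). Scrublet's automatic threshold marked 0% and 0.0403% as doublets, so the top expected share by its score, 0.8% per 1000 barcodes, was removed instead (496 and 443).

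Cells of both libraries were clustered together with Scanpy 1.11.5 (Leiden resolution 2) without the 10 genes, and clusters were named from marker lists. UMIs were summed per library and class and divided by the class total (CPM). CPM have exact Poisson intervals, ratios exact conditional binomial intervals and shares Clopper-Pearson intervals, all at 95%. A gene with 0 UMIs was given the limit that 3 counts allow. A gene was measured in a class with at least 50 UMIs over both libraries, and classes were compared with at least 50 cells in each library; conventional and plasmacytoid DC-like cells were added after the data had been seen. With 1 library per genotype, calls are sizes past 1.5-fold and not tests. All 10 genes are named in the text, and other pathway genes where past 1.5-fold or given by default (Ctss, Lgmn, Rfx5 and Cd86). Ifi30, also planned as a default gene, is not reported. A second lineage needed 3 UMIs of its core genes, but 10 for neutrophil genes, which differs from the 3 planned. The alternatives covered doublet removal, cell filters, clustering, thinning to 1000 UMIs, scaling and thresholds. The ratio intervals were tested on simulated Poisson counts, which hold no spread between cells or mice, so that run covers counting error only. Python 3.11.15, NumPy 2.4.6, pandas 2.3.3 and SciPy 1.17.1 were used. The members and gene lists were chosen with earlier results of these data known.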

Additional observations from a re-analysis of the deposited data

Results flagged for a closer look

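The genotype difference of several members had opposite signs in different cell classes, with counting intervals on either side of 0; these differences between classes were not tested, since each genotype is 1 library. Most involve the F13a1 cluster, where Jagged1/PyMT was higher. For H2-Aa, the log2 ratio (Jagged1/PyMT over PyMT) in the F13a1 cluster minus that in B cell-like cells was 0.94, and for H2-Ab1 it was 0.90. The same difference was 1.02 for Cd74, 0.63 for H2-DMa, 1.41 for H2-DMb1 and 1.55 for H2-DMb2. Against macrophage-like cells, the F13a1 cluster's log2 ratio was larger by 1.05 for H2-Aa, 0.93 for H2-Ab1, 1.05 for Cd74, 1.21 for H2-DMb1 and 1.48 for H2-DMb2. Against mature DC-like cells it was larger by 0.99 for H2-Aa. Cd74 in mature DC-like cells had a log2 ratio larger by 0.24 than in B cell-like cells and by 0.28 than in macrophage-like cells. Barcodes with a second lineage made up 39.8% of Jagged1/PyMT and 32.8% of PyMT cells of the F13a1 cluster. Without them the log2 ratio of H2-Aa in that cluster was 0.33, that of H2-Ab1 0.28 and that of Cd74 0.58, and 2 members in place of 6 were over 1.5-fold higher. Where the cluster merged with the conventional DC-like cells, at a lower Leiden resolution and with the libraries clustered apart, the log2 ratios of H2-Aa, H2-Ab1, Cd74, H2-DMb1 and H2-DMb2 were below 0.

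H2-Eb2, a class II beta chain gene outside the 10, had its highest levels in B cell-like and mature DC-like cells. It was at 77.5 CPM in Jagged1/PyMT and 82.1 CPM in PyMT B cell-like cells, and at 41.3 CPM in Jagged1/PyMT and 53.2 CPM in PyMT mature DC-like cells. Macrophage-like cells had 0.338 CPM in Jagged1/PyMT and 0 UMIs in PyMT, and T cell-like cells had 0.578 CPM in Jagged1/PyMT and 0.152 CPM in PyMT.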

How the results depend on the processing

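No paired analysis was possible because each genotype is 1 library with no map from barcodes to samples, and for the same reason no replicate could be left out. The sign of a member's log2 ratio was the same in 119 of 120 alternative values in B cell-like, 107 of 119 in macrophage-like, 58 of 59 in mature DC-like and 83 of 90 in conventional DC-like cells, and in 89 of 104 in the F13a1 cluster. In B cell-like cells 0 members passed 1.5-fold in every alternative run. In conventional DC-like cells 1 was higher without doublet removal and 1 with cells thinned to 1000 UMIs. In mature DC-like cells 2 were higher without doublet removal and 1 with no UMI minimum; 0 were lower at 5% mitochondrial UMIs, with median-of-ratios scaling and at 2-fold, and 2 were lower thinned, with the T cell-like level subtracted and with no UMI minimum. In macrophage-like cells 1 was lower without doublet removal, at 5% mitochondrial UMIs, at 1000 UMIs or more and at Leiden resolutions 1 and 3, 0 with the libraries clustered apart and at 2-fold, and 4 as the mean of per-cell fractions. In the F13a1 cluster 2 were higher without second-lineage barcodes, at 2-fold and, chosen after seeing the data, without sub-clusters of mixed lineage. At Leiden resolution 1 and with the libraries clustered apart it merged with the conventional DC-like cells, which then formed no class of their own. There 0 members were higher, with 2 lower at resolution 1 and 3 lower with libraries apart, and the log2 ratios turned to -0.43 and -0.50 for H2-Aa, -0.39 and -0.45 for H2-Ab1, -0.11 and -0.19 for Cd74, -0.53 and -0.53 for H2-DMb1 and -0.68 and -0.68 for H2-DMb2. The share of member UMIs in B cell-like cells became 18.7% in Jagged1/PyMT and 66.8% in PyMT without doublet removal, and 23.3% and 75.5% without second-lineage barcodes. In macrophage-like cells it became 68.2% in Jagged1/PyMT and 15.5% in PyMT without doublet removal, and 12.7% in PyMT without second-lineage barcodes. H2-O over H2-DM became 0.395 in Jagged1/PyMT B cell-like cells when thinned. In conventional DC-like cells it became 0.118 in Jagged1/PyMT and 0.0879 in PyMT when thinned, and 0.0783 in Jagged1/PyMT without second-lineage barcodes. In Jagged1/PyMT macrophage-like cells it became 0.0195 when thinned and 0.0213 without second-lineage barcodes. The summed level in B cell-like cells became 48599 CPM in Jagged1/PyMT and 55050.2 CPM in PyMT with the T cell-like level subtracted, 50875 and 57232 CPM when thinned, and 55706 CPM in PyMT without second-lineage barcodes. In macrophage-like cells it became 33305 CPM in Jagged1/PyMT with the T cell-like level subtracted, 41030.3 CPM in Jagged1/PyMT and 53525 CPM in PyMT when thinned, and 43800.1 and 55973 CPM without second-lineage barcodes. Apart from the merged cluster, the cause of these changes was not tested. Depth limits H2-O and Ciita in macrophage-like and dendritic classes, which rest on few UMIs in PyMT.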

Other observations

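Outside the comparisons above, mature DC-like cells held H2-Eb2 and H2-Oa, which their conventional counterparts held in another proportion. Conventional DC-like cells had H2-Eb2 at 2.48 CPM in Jagged1/PyMT and 1.37 CPM in PyMT, far below the mature DC-like levels given above, while their H2-Oa was at 66.9 CPM in Jagged1/PyMT and 75.2 CPM in PyMT. H2-Eb2 thus went with maturity in the direction opposite to H2-Ab1, H2-Eb1 and the H2-DM genes in both libraries.

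In a T cell-like cluster of regulatory and cycling cells (cluster 22), H2-Oa was at 38.5 CPM in Jagged1/PyMT and 28.4 CPM in PyMT, beside H2-Aa at 738 CPM in Jagged1/PyMT and 352 CPM in PyMT. That cluster held H2-Aa far above the CD8 clusters and H2-Oa above them too, and the part of RNA from other cells there was not tested.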
